A study of Mus musculus with 6 samples.

Results

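The normal newborn mouse lens was described across genes from the 3 libraries labelled Gclc CON, which are 3 of the 6 libraries of the study. The libraries were chosen by that label alone and by no measured value. They are called CON 1, CON 2 and CON 3 here, and all came from lens tissue of B6/FVB mice on postnatal day 1 (P1). The other 3 libraries are labelled Gclc KO, and no comparison with them was made. Gclc makes the catalytic part of the enzyme for the first step of glutathione synthesis. The labels do not give the alleles or any Cre transgene of the control mice, the sex or litter of the pups, or the number of lenses and animals in a library. Biological and technical parts of the spread between libraries reported below can therefore not be told apart. Per the labels' protocols, lenses were stored in RNAlater, RNA was purified with a micro-scale column kit, and libraries were built from 1 ug of total RNA with a low-input kit.

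The lens consists of a sheet of epithelial cells over its front and a mass of elongated fibre cells behind it, enclosed by a capsule of basement membrane. Epithelial cells near the equator leave the cell cycle, elongate and fill with crystallins, the densely packed soluble proteins that refract light. Alpha-crystallins are small heat shock proteins with chaperone activity, and beta- and gamma-crystallins are related structural proteins. Maturing fibres break down their nuclei and organelles, build a cytoskeleton of beaded filaments, and stay connected through gap junctions and water channels. The tissue has no blood supply of its own and relies largely on glycolysis.

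The libraries held 43384443, 20361430 and 42313567 reads in genes, and 15203, 13590 and 14324 genes had reads. CON 2 was thus the shallowest, and its library name ends in another lane code than those of CON 1 and CON 3. Levels are reads per kilobase of annotated exon, scaled so that all genes of a library sum to 1000000. A level of 1 corresponded to 27.4, 15.03 and 29.4 reads per kilobase of exon in CON 1 to 3. A gene is called on where its level was 1 or more in all 3 libraries and off where it was under 0.1 in all 3. Of 21572 genes with a length, 6366 (29.5%) were on, 7837 (36.3%) were off and 7369 (34.2%) lay between. Just inside a mean level of 1 were Aida (1.00) and Lysmd4 (1.00), and just outside it were Otud4 (0.99993) and Ntrk2 (0.9997). All 4 genes fell between on and off, since 1 or more of their libraries lay under 1. Counts of reads that were divided by a size factor per library are called normalised reads. A comparison between libraries rests on the quantity, level or normalised reads, that is named with it.

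The lens label was checked against 4 markers of lens tissue. Cryaa, an alpha-crystallin, had levels of 108538, 74459.7 and 86008, and Cryba1, a beta-crystallin, had levels of 136438, 126285 and 154491. Mip, the water channel of fibre cells, had levels of 3593, 1902 and 1958, and Bfsp1, a beaded filament protein, had levels of 275, 294 and 304. All 4 markers stood among the 100 highest genes by mean level. Bfsp1 stood at rank 96, and at rank 197 with the longest RefSeq-matched transcript as length. Gclc itself was on at a low level, with 169, 90 and 117 reads and levels of 1.64, 1.59 and 1.06. With the longest RefSeq-matched transcript as length its level in CON 3 was 0.806, and it would not count as on.

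The promoters of the crystallin genes are shown first, because these genes hold most of the transcripts of the tissue. RefSeq promoter sequences (GRCm38.p6) were matched for 15 of the 16 crystallin genes. Each line gives the 60 bases before the annotated start, 5′ to 3′ on the strand of the gene, with every TATA in capitals. Crybb1, Cryba1, Cryaa and Crygb are among the 5 genes with the highest levels, Crygd, Cryge and Crygf show closely related gamma-crystallin promoters, and Crybb2 is the crystallin with the lowest level.
Crybb1 (chr5:112255760-112255819, + strand): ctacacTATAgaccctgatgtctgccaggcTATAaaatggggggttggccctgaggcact
Cryba1 (chr11:77725294-77725353, - strand): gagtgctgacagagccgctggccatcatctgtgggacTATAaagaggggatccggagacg
Cryaa (chr17:31677871-31677930, + strand): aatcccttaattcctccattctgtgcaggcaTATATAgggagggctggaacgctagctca
Crygb (chr1:65082291-65082350, - strand): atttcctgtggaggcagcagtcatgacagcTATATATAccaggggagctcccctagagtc
Crygd (chr1:65063441-65063500, - strand): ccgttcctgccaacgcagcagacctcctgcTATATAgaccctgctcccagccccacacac
Cryge (chr1:65051164-65051223, - strand): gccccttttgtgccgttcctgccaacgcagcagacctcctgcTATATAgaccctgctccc
Crygf (chr1:65926462-65926521, + strand): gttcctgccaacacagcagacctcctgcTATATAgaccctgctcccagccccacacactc
Crybb2 (chr5:113070118-113070177, - strand): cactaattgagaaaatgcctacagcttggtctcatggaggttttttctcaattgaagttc

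TATA, searched on the strand of the gene, was found in these 60 bases in 12 of the 15 crystallin promoters (80.0%). It was found in 11.9% of 17099 promoters of all genes, in 6.18% of those of genes that were on and in 20.9% of those of genes that were off. Among the 61 promoters of the 100 highest genes outside the crystallins, 18.03% held it. The longer run TATATA, whose matches all overlap matches of TATA, was found in 8 of the 15 crystallin promoters (53.3%) and in 2.09% of all promoters. Crybb2, Crybb3 and Cryba2 had no TATA in this window. The first TATA began at position -54 from the annotated start in Crybb1, at -18 in Cryge and from -39 to -23 in the other 10 genes. TGCTGA, a half-site of the recognition element of MAF factors, was searched on both strands of 300 bases around the start. It was found in 10 of the 15 promoters (66.7%) against 20.4% of all promoters. Crygd and Cryge shared an identical run of 78 of these 300 bases, Crygd and Crygf shared 64, and Cryge and Crygf shared 55. These matches describe letters in a window, and no binding or start site was measured.

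Transcripts of the 16 crystallin genes took 59.5%, 68.4% and 66.1% of the reads in CON 1 to 3, a mean of 64.7% ± 4.60 (SD, n = 3). As a share of the level, which is per length and so weights short transcripts more, they took 81.1%. All 16 genes were on, against 29.5% of all genes. The 15 genes with the highest mean levels were all crystallins, and only Crybb2 stood lower, at rank 19 behind 3 fibre genes. The 5 highest genes together held 61.2% of the level, the 10 highest 74.8% and the 15 highest 80.9%. The 100 highest held 86.8% and the 1000 highest 94.9%.

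**Figure D1:**
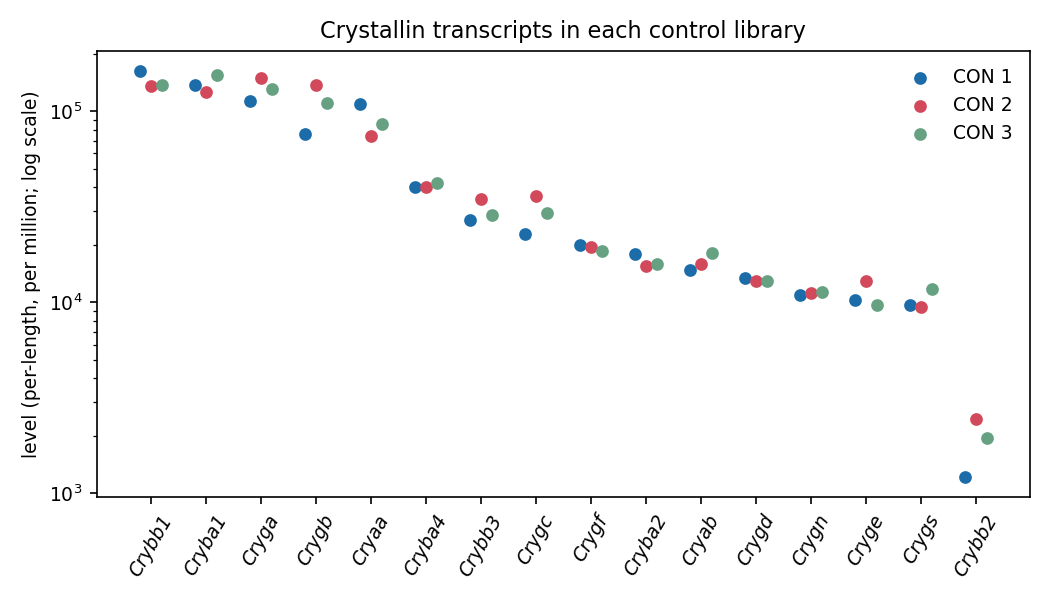
Level of each of the 16 crystallin genes (y axis, log scale, reads per kilobase of exon scaled to the same total in each library) in CON 1, CON 2 and CON 3 (points, coloured by library). From Crybb1 to Cryaa the genes lie between 74459.7 and 161938, Cryba4 to Crygs lie between 9450.4 and 42148, and Crybb2 lies apart between 1221 and 2436.

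By class, the 6 beta-crystallins held 46.01% ± 3.30 of the crystallin level (SD, n = 3), the 8 gamma-crystallins 40.9% ± 5.74 and the 2 alpha-crystallins 13.1% ± 2.48. In reads, which are not corrected for length, the alpha class held 22.3% and the gamma class 25.4%. The gamma share was lowest in CON 1 (35.1% of the crystallin level) and highest in CON 2 (46.6%), and the alpha share had the opposite order (15.8% in CON 1 and 10.8% in CON 2). CON 3 lay between them in both, at 40.9% and 12.7%. The beta share was 49.1%, 42.6% and 46.4% in CON 1 to 3, so that in CON 2 the gamma class lay above the beta class. With the longest RefSeq-matched transcript as length the beta class held 53.1%, the gamma class 32.1% and the alpha class 14.8%. In CON 2 the beta class then lay above the gamma class, at 50.6% against 37.0%. It also did so in reads, at 51% against 29.8%.

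Cryaa, the lens-restricted alpha-crystallin, exceeded Cryab, the alpha-crystallin that is also found in muscle and other tissues. Cryab had levels of 14698, 15767 and 17991, and the ratio of Cryaa to Cryab was 7.38, 4.72 and 4.78 in CON 1 to 3. The difference between these genes was larger than the spread between libraries in each.

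Among the beta-crystallins, the basic Crybb1 had levels of 161938, 135624 and 136344, and the acidic Cryba1 followed closely. Their ranges overlapped, and Crybb1 was above Cryba1 in CON 1 and CON 2 and below it in CON 3. Cryba4 had levels of 39948, 39816 and 42148, Crybb3 of 26964, 34644 and 28471, and Cryba2 of 17877, 15465 and 15896. These genes did not overlap with each other in level. Crybb2, the most abundant beta-crystallin of the adult lens, had levels of 1221, 2436 and 1949.7, so that Crybb1 exceeded it by 133, 55.7 and 69.9 times in the 3 libraries. The order at the head of the list depends on the length used. With the longest RefSeq-matched transcript as length, Cryba1 came first with a mean of 198639, Crybb1 second with 112603, and the mean was 59088 instead of 30026 for Crybb3 and 2903 instead of 1869 for Crybb2.

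Among the gamma-crystallins, Cryga had levels of 112353, 149131 and 130988, and Crygb had levels of 75756, 137124 and 110456. Both were lowest in CON 1 and highest in CON 2, and they overlapped with each other. Crygc followed with levels of 22656, 35983 and 29423 in the same order of libraries. Crygf had levels of 19828, 19364 and 18592, Crygd of 13336, 12869 and 12844, and Cryge of 10280.2, 12865 and 9685. Crygd and Cryge overlapped, and Crygf lay above both in every library. This order depends on the length used. With the longest RefSeq-matched transcript as length, Crygd had levels of 15441.5, 15287 and 14946 and Crygf of 13690, 13717 and 12901. Crygd then lay above both Crygf and Cryge in every library. Crygn, a member that combines beta-like and gamma-like gene structure, had levels of 10875, 11195 and 11256, and Crygs, the gamma-crystallin known to persist in the adult lens, had levels of 9719, 9450.4 and 11769.6. Reads of the near-identical genes cannot be assigned with certainty. Of all 50-base windows of its transcript, Cryge shared 57.0% with other crystallin transcripts, Crygf 35.0%, Crygd 34.04%, Crygb 29.4%, Crygc 24.0% and Cryga 5.73%, and the other 10 genes shared none. How the submitters' counting split such reads is not given in the sources used here.

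Genes that carry the word crystallin in their names but belong to other protein families were far lower. Of 7 such genes, 2 were on, the quinone oxidoreductase Cryz with levels of 7.73, 5.69 and 7.62 and the related Cryzl1 with levels of 8.81, 8.21 and 9.88. Crym, Crybg1, Crybg3 and Cryl1 lay between on and off, and Crybg2 was off. The level gap between Cryz and the lowest lens crystallin, Crybb2, was larger than the spread of either.

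**Figure D2:**
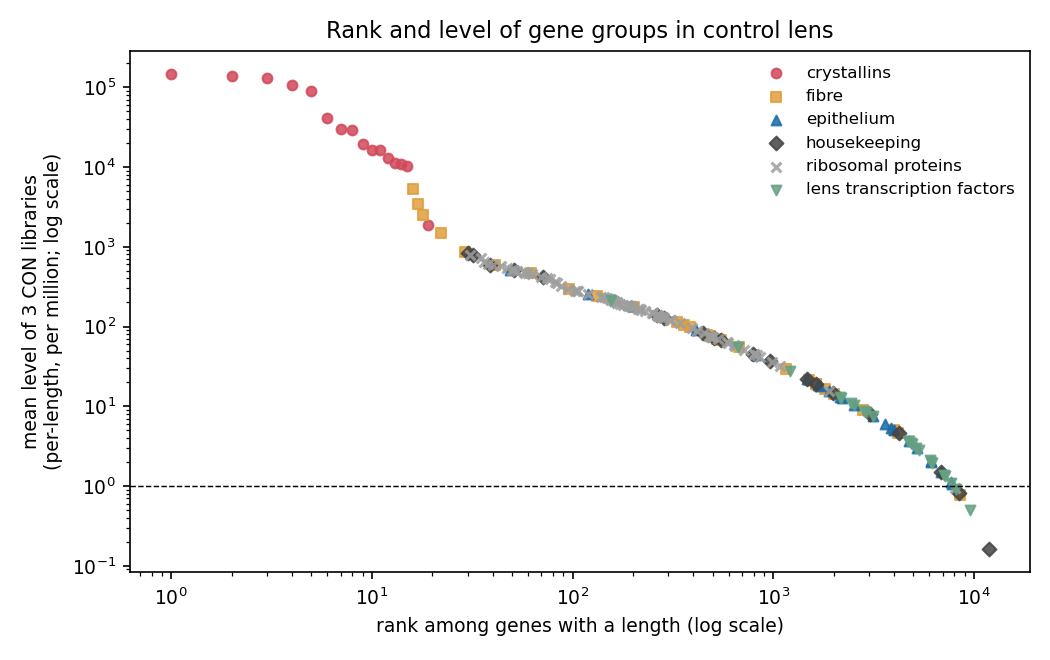
Mean level over CON 1 to CON 3 (y axis, log scale) against rank among genes with a length (x axis, log scale) for members of 6 gene lists (colours and shapes). The dashed line marks a level of 1; crystallins hold ranks 1 to 15, and lens transcription factors begin at rank 156.

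Below the crystallins, fibre genes led. Bfsp2, the smaller subunit of the beaded filament, stood at rank 16 with levels of 5597, 4911 and 5535. Lim2, a membrane protein of fibre junctions, stood at rank 17 with levels of 3282, 3643 and 3475, and its mean was 5979.6 instead of 3467 with the RefSeq-matched length. Mip stood at rank 18, was highest in CON 1 and was nearly equal in the other libraries. The remaining genes among the 25 highest were Selenow, Ndufa1, Grifin, Ftl1, mt-Cytb and Gje1. Selenow, a small selenoprotein, had a mean of 1759.7 ± 110.0 (SD, n = 3), Ndufa1, a subunit of respiratory complex I, 1541 ± 294, and Grifin, a galectin of the lens, 1484 ± 245. Ftl1, the ferritin light chain, had a mean of 1416 ± 102, mt-Cytb, the cytochrome b of the mitochondrial genome, 1378 ± 181, and Gje1, a protein related to connexins, 1363 ± 306. Selenow lay above Ftl1, mt-Cytb and Gje1 in every library, but with the RefSeq-matched length Ftl1 lay above Selenow in every library. The ranges of the other 5 genes overlapped with each other, so that their order is not resolved. Of the 25 highest genes, 22 were again among the 25 highest with the RefSeq-matched length, and 20 were when length was left out. In the first case Grifin and Gje1 moved to ranks 26 and 30, mt-Cytb had no RefSeq-matched length and so no rank, and the genes that entered were Nupr1, Rpl41 and Rps14.

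Of the 28 fibre genes, 27 were on, against 29.5% of all genes. Together the 28 genes took 2.38% ± 0.249 of the reads (SD, n = 3) and 6.74% ± 0.202 of the reads outside crystallins. Lenep, a small lens protein, had levels of 863, 744 and 952. Tdrd7, an RNA granule component whose loss causes cataract, had levels of 926, 326 and 524, and Caprin2, an RNA-binding protein of the lens, had levels of 127, 46.7 and 53.5. Both were highest in CON 1 and lowest in CON 2. Capn3, the calpain with a lens splice form, had levels of 664, 316 and 413, and Dnase2b, the nuclease that degrades fibre nuclei, had levels of 72.9, 53.9 and 76.4. Birc7, an inhibitor of apoptosis family member, had levels of 119, 98.6 and 99.1, and Lctl, a klotho-related protein, had levels of 116, 70.9 and 105. Nhs, the gene of Nance-Horan syndrome with congenital cataract, was the fibre gene with the lowest level. It had 454, 8 and 90 reads, and its level was 1.88 in CON 1 but 0.0605 in CON 2.

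Levels are parts of a fixed total, most of which the crystallins took, while normalised reads are scaled on the median gene, and the size of a difference between libraries depends on which is used. The level of Mip in CON 1 was 3593 against 1902 in CON 2, whereas its normalised reads were 222688, 192854 and 182282, a coefficient of variation (CV, the SD over the mean) of 10.5%. In a bulk sample fewer cells of a type and less RNA per cell cannot be told apart, and this holds for every group of genes described here.

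Families of related genes were examined for the members in use. In 41 families with 271 members, 116 members (42.8%) were on, 85 lay between and 70 were off, 57 of them without a read in any library. Across all genes with a length 29.5% were on, and since the families were chosen with lens genes in mind the difference is no result about them. The member with the highest level was the same in all 3 libraries in 38 families. The crystallins and the family of Six3 were among the exceptions. In 19 families this leading member held over 90% of the family's summed level, 10 families had 1 member on and 2 families had none, and in 3 families all members were on.

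**Figure D3:**
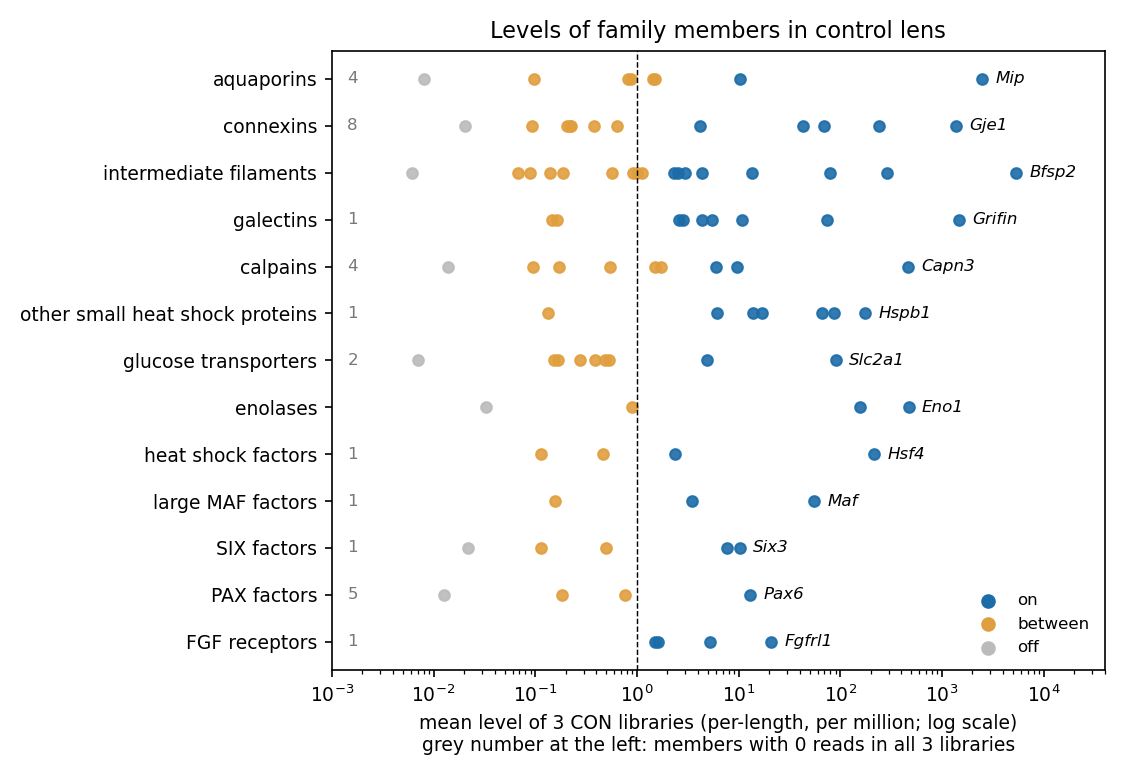
Mean level over CON 1 to CON 3 (x axis, log scale) of each member of 13 gene families (rows), coloured by whether it was on, between or off, with the leading member named. The dashed line marks a level of 1, and grey numbers count members without reads; Mip, Bfsp2, Grifin, Capn3 and Hsf4 stand far to the right of the other members of their families, while enolases and the relatives of Six3 have close neighbours.

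In the fibre membrane, each family was led by a gene known from the lens. Mip held 99.4% ± 0.201 of the summed aquaporin level. Aqp1, the water channel of the epithelium, had levels of 12.8, 5.22 and 12.7 and was the only other aquaporin that was on. Aqp5 had levels of 2.04, 1.59 and 0.928 and fell short of 1 in CON 3, and Aqp3, Aqp4, Aqp8 and Aqp11 also lay between. Aqp2, Aqp6, Aqp9 and Aqp12 had no reads, and Aqp7 was off with 2 reads in CON 3 alone. Lim2 held 92.2% ± 1.74 of the family of PMP22 and EMP proteins, in which Pmp22, a myelin protein also made elsewhere, had levels of 327, 220.0 and 302.

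Among 20 connexin genes 5 were on, a share close to the 29.5% of all genes. Gje1, a connexin-like gene mutated in a mouse line with small eyes, had levels of 1453, 1022 and 1614 and held 79.9% ± 9.98 of the summed level. Gja3, a connexin of fibre gap junctions, was lower, with levels of 470.1, 161 and 94.8. The ratio of Gje1 to Gja3 was 3.09, 6.33 and 17.03, so Gje1 was higher in every library, but by an amount that differed between libraries. Gja1, the connexin of the epithelium, had levels of 59.96, 19.4 and 51.1, below Gja3 in every library. Gja4 was on at a mean of 4.19, 6 other connexins lay between and 9 were off. With the RefSeq-matched length the mean of Gja1 was 101 instead of 43.5, and in CON 3 Gja1 then lay above Gja3, at 118 against 70.5.

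In the cytoskeleton, Bfsp2 held 93.0% ± 0.395 of the summed level of 17 intermediate filament genes, and 8 of these were on. Its partner in the beaded filament, Bfsp1, was lower by a ratio of 20.4, 16.7 and 18.2 in the 3 libraries. Vim, the vimentin of epithelial cells and young fibres, had levels of 105, 68.3 and 62.9, and Gfap, best known from astrocytes, was on with levels of 3.29, 1.51 and 2.23. Des, Nefm and Nefh, filaments of muscle and neurons, lay between, and Prph was off. Actb held 90.6% of the actins, and the muscle actins Acta1 and Actc1 had no reads. Of 8 beta-tubulins 7 were on, and none held over 30.3% of the family in any library. Tubb3, a beta-tubulin typical of neurons, had levels of 22.7, 16.99 and 2.24 and was thus low in CON 3 alone.

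Grifin held 93.5% ± 1.45 of the galectins, with Lgals1 at 81.1, 69.3 and 74.5 as the next. Dnase2b held 98.3% ± 0.137 of the deoxyribonucleases, in which no other member was on. Capn3 held 96.3% ± 1.58 of the calpains, ahead of the widespread Capn2 with levels of 17.8, 4.96 and 6.27. The widespread Capn1 had 26 reads in CON 1 and none in CON 2 and CON 3. Outside the alpha-crystallins, 6 of 8 small heat shock proteins were on. Hspb1 had levels of 258, 125 and 141, Hspb2 of 76.8, 90.6 and 91.0 and Hspb3 of 66.6, 55.0 and 76.5. Hspb1 lay above the other members in every library, while Hspb2 and Hspb3 overlapped. Cryab, the neighbour of Hspb2 in the genome, exceeded it by a ratio of 191, 174 and 198.

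At most steps of glycolysis that were examined, 1 isoform held most of the level. Slc2a1, the glucose transporter of many epithelia, had levels of 146, 59.7 and 65.6 and held 93.1% ± 1.79 of the glucose transporters. Slc2a3 lay between with levels of 0.539, 0.450 and 0.174. At the first kinase step Hk2 was on with levels of 9.56, 5.76 and 5.24. Hk1, the hexokinase of most tissues, lay between on and off with levels of 3.35, 0.725 and 0.291. Pfkl held 90.7% of the phosphofructokinases and Aldoa 77.2% of the aldolases, with Aldoc at 109, 77.1 and 107. Pgk1 and Pkm held their whole families, since Pgk2 and Pklr had no reads.

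Further down the pathway, Eno1 had levels of 601, 412 and 405 and Eno3, the enolase of muscle, was on with levels of 188.3, 129.9 and 147. With the RefSeq-matched length the mean of Eno1 was 874 instead of 473. Ldha held 89.3% ± 5.89 of the lactate dehydrogenases. Pgam2, the phosphoglycerate mutase of muscle, stood at rank 26 with levels of 904, 982 and 1119, although 4 of 6 muscle markers had no reads and none was on. Among the sodium pumps Atp1b3 held 95.2% of the beta subunits with levels of 118, 69.8 and 73.9, whereas the widespread Atp1b1 lay between with levels of 2.89, 0.950 and 0.452.

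Of 24 lens transcription factors 17 were on, against 29.5% of all genes. Hsf4, the heat shock factor whose mutation causes cataract, was the highest at rank 156 with levels of 288, 184 and 178, and it held 98.7% ± 0.227 of the heat shock factors. Maf, which binds the promoters of crystallin genes, had levels of 60.1, 47.6 and 59.1 and held 94.0% of the large MAF factors. Prox1, required for fibre elongation, had levels of 47.2, 14.6 and 20.4. Pax6, the factor that specifies the eye, had levels of 15.9, 8.83 and 14.4 and was the only PAX factor that was on. Its mean was 13.1 with the exon union and 34.1 with the RefSeq-matched length. Gata3 had levels of 14.7, 10.8 and 7.19, and the other 5 GATA factors had no reads.

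The related factors Six3 and Six6 were both on. Six3 had levels of 9.25, 11.6 and 10.1 and Six6 of 10.2, 7.10 and 5.77, and Six6 was the higher of the pair in CON 1 only. Sox1 was on with levels of 4.62, 4.26 and 2.26. Sox2, of the same family, lay between with levels of 0.763, 1.75 and 0.776, and Sox3 had no reads. Of the FGF receptors, which receive the signal for fibre differentiation, Fgfr1, Fgfr2 and Fgfr3 were on at means of 1.62, 1.52 and 5.29. Fgfrl1, a receptor without a kinase domain, was the highest of the family at 35.8, 13.9 and 13.6. Fgfr4 had no reads.

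A pair of factors of the epithelium had most of their reads in CON 1. Foxe3, which keeps epithelial cells alive and dividing, had 487 reads in CON 1, 26 in CON 2 and 2 in CON 3, or levels of 20.5, 1.995 and 0.0784. Pitx3, another factor of the lens epithelium, had 1385, 95 and 49 reads, or levels of 33.1, 4.14 and 1.09. Both genes were highest in CON 1 and lowest in CON 3. In normalised reads Foxe3 was 514, 81.8 and 2.95, where 3 reads would be 3.17, 9.44 and 4.42. The reads of Foxe3 in CON 3 are thus under that floor. Without CON 3 Foxe3 would count as on, and with the RefSeq-matched length Pitx3 would not.

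The 23 epithelial genes took 0.322% ± 0.0911 of the reads (SD, n = 3), and 18 were on, against 29.5% of all genes. Dkk3, a secreted modulator of WNT signalling, was the highest with levels of 805, 313 and 419. Sparc, a matrix protein, had levels of 250.1, 229.9 and 281, and Clu, a secreted chaperone, had levels of 212, 143 and 181. Wnt7b had levels of 41.7, 8.37 and 5.18, and Cdh1, the cadherin of epithelia, had levels of 12.2, 2.30 and 3.23. Both were highest in CON 1, and so was Cdh2, the cadherin that fibres also use, with 35.3, 10.6 and 10.5. Abcb1a, a drug transporter, was the lowest of the list with levels of 1.58, 0.753 and 0.837.

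In normalised reads 14 of the 22 epithelial genes with a mean of 100 or more were highest in CON 1, against 36.2% of all 9626 genes at this depth. The difference was not uniform. The list's summed normalised reads were 192064, 152968 and 192909, so that CON 3 equalled CON 1 in the sum, since Gja1, Sparc and Clu were higher in CON 3. Gja1 had 17777, 9429 and 22737 normalised reads. The crystallins showed the opposite order, with 12 of 16 highest in CON 2, 4 in CON 3 and none in CON 1. Whether the libraries differed in the share of epithelial cells was not tested.

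Of 24 genes of the capsule, the basement membrane around the lens, 10 were on, against 29.5% of all genes. Nid1, which links laminin and collagen networks, had levels of 131, 51.9 and 74.3. All 6 chains of collagen IV were on, from Col4a1 with 29.2, 18.8 and 14.3 and Col4a2 with 26.1, 18.1 and 12.4 down to Col4a4 with 2.02, 1.77 and 1.49. The ratio of Col4a1 to Col4a2, which assemble into the same trimer, was 1.12, 1.04 and 1.15 and varied less than the level of either gene. No laminin alpha chain was on. Lama1 came nearest with levels of 2.22, 1.29 and 0.663, and Lama3 was off.

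Housekeeping genes took 0.615% ± 0.0630 of the reads (SD, n = 3), and 17 of 20 were on, against 29.5% of all genes. Eef1a1, a translation factor, had levels of 1061, 651 and 772, Ubb, a ubiquitin gene, 793, 749 and 811, and Actb 789.5, 519 and 476. Gapdh, often taken as a reference gene, had levels of only 29.4, 17.7 and 17.96. Many processed copies of Gapdh lie in the mouse genome, and how reads that fit several places were counted is not given in the sources used here.

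Ribosomal protein genes took 2.01% ± 0.0654 of the reads, with 78 of 79 on, against 29.5% of all genes. Rpl32 led with levels of 872, 791 and 724, and Rpl39 was the only gene of the list that was not on, with levels of 0.611, 0.789 and 1.40. In the list of the 100 highest genes, 21 were ribosomal proteins, 16 crystallins, 8 fibre genes, 5 housekeeping genes and 1 an epithelial gene. All 13 protein genes of the mitochondrial genome were on, but at uneven levels. The level of mt-Cytb was 1170.4, 1458 and 1505 and that of mt-Nd1 was 572, 546 and 534, while mt-Co2 had 3.26, 2.04 and 2.38 and mt-Co3 had 2.56, 2.12 and 1.73. These genes are transcribed together, and parts of the mitochondrial genome also have copies in the nuclear genome. Reads shared with such copies may be missing from the counts, which was not tested.

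Cell cycle genes were present at low levels, with 18 of 23 on, against 29.5% of all genes. Cdkn1c, the inhibitor with which fibre cells leave the cycle, was the highest with levels of 106, 83.0 and 51.5. Pcna, a replication factor, had levels of 14.5, 14.1 and 13.3, and Ccnb2, a mitotic cyclin, had levels of 16.6, 8.78 and 6.88. Mki67, the common marker of dividing cells, was the lowest and lay between on and off with levels of 0.755, 0.761 and 0.432. Rrm2, which supplies nucleotides for replication, had levels of 10.4, 10.1 and 1.01 and was low in CON 3 alone, as was Mcm6 of the replicative helicase with 8.12, 5.75 and 0.903. Rrm2 would not count as on with the RefSeq-matched length. In normalised reads 13 of 22 genes of the list were highest in CON 2, against 29.6% of all genes, and 2 were highest in CON 3, against 34.2%.

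Of 10 genes of glutathione synthesis and turnover, 7 were on, against 29.5% of all genes. Together the 10 genes took 0.0884% ± 0.00590 of the reads (SD, n = 3). Gss, which adds glycine in the last step, dominated with levels of 219.8, 163 and 174. Gclc, the gene targeted in the study, was lower than Gss by a ratio of 134, 102 and 165, or of 367, 280.0 and 451 with the RefSeq-matched length. Its modifier subunit Gclm lay between on and off with levels of 1.43, 0.508 and 0.626. Ggct, which releases oxoproline during turnover, followed Gss with levels of 15.3, 16.8 and 17.8. Slc7a11, the cystine transporter, had levels of 1.62, 1.58 and 2.12, and Gsr, which reduces oxidised glutathione, had levels of 2.52, 1.74 and 1.06. Gclc had 178, 283 and 173 normalised reads, a CV of 29.5%, and its counts of reads limit the precision of a single library. With the RefSeq-matched length the mean of Gss was 389 instead of 185, and neither Gclc nor Gsr would count as on.

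Immediate early genes, which rise within minutes of stress or handling of cells, had 2 of 12 members on, against 29.5% of all genes. Dusp1, a phosphatase, had levels of 17.6, 9.85 and 5.59, and Jun, a transcription factor, had levels of 12.2, 3.67 and 1.75. Both were highest in CON 1 and lowest in CON 3, as was Ier2 with 5.59, 3.15 and 0.737. Fos had no reads in CON 1 and 38 and 26 in CON 2 and CON 3, and Fosb and Egr2 had none. The summed normalised reads of the list were 3562, 2684 and 1389.

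Markers of other cells of the eye were present at low levels, and their counts stand beside the 29.5% of all genes that were on. Of 9 markers of pigment cells 6 were on, with summed levels of 132, 61.9 and 85.3. Pmel, a melanosome protein, had levels of 80.8, 32.7 and 42.1, and Tyr, Tyrp1, Dct, Mlana and Mitf were also on, while Rpe65, the defining gene of mature retinal pigment epithelium, had no reads. Of 15 retinal markers 4 were on, close to that share, with summed levels of 29.01, 16.6 and 15.6. Six6, Rlbp1 and Elavl4 were among these, and Six6 is also a factor of the lens. Pou4f2 and Rcvrn, which define ganglion cells and photoreceptors, had no reads.

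Of 7 red cell markers 4 were on, led by Hba-a2 with levels of 107, 117 and 107, and Hbb-y had no reads. Of 12 macrophage markers 6 were on, with summed levels of 44.5, 20.4 and 46.9, led by C1qa with 11.7, 5.12 and 12.1. Endothelial markers summed to 28.1, 17.8 and 18.2, with Cldn5 and Tek on (Tek not with the RefSeq-matched length), and mesenchymal markers to 5.48, 7.96 and 3.75, with Acta2 on. Of 6 markers of cornea and surface epithelium only Krt10 was on, and Krt12, the keratin of the cornea, had no reads. Muscle markers summed to at most 0.841. All of these sums are small beside a fibre list sum of 18221, 14759 and 15622.5, and the part of such cells in any value above was not tested.

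**Figure D4:**
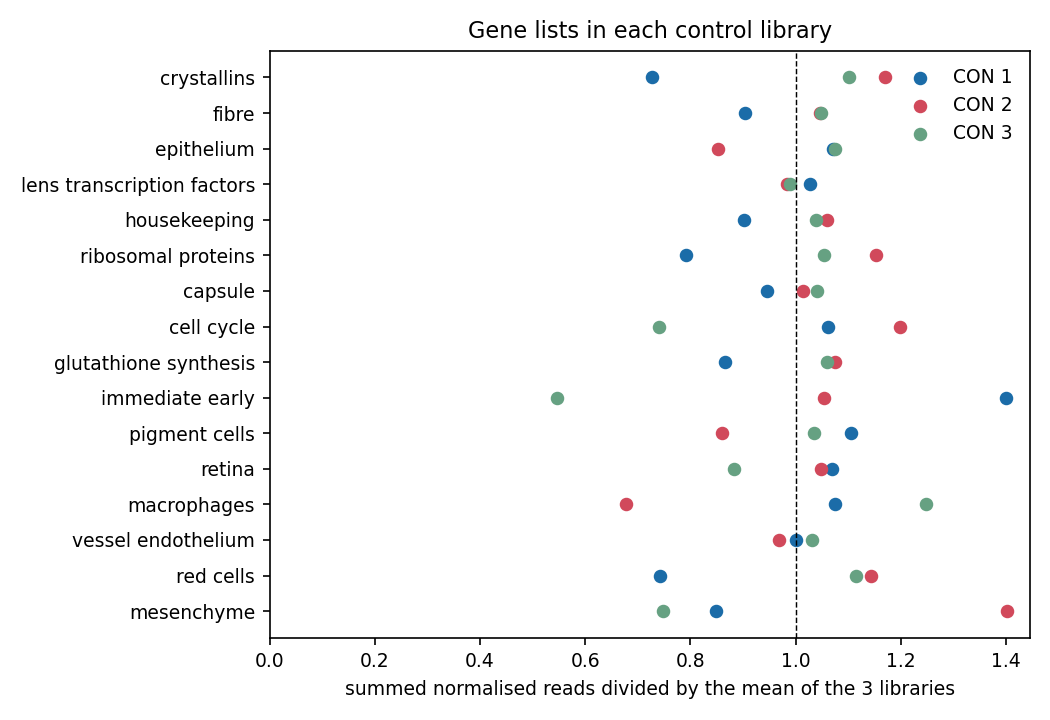
Summed normalised reads of 16 gene lists (rows) in CON 1, CON 2 and CON 3 (points), each divided by the mean of the 3 libraries (x axis, linear; the dashed line marks the mean). CON 1 is lowest for crystallins, fibre genes, ribosomal proteins and red cells and highest for immediate early genes, and CON 3 is lowest for cell cycle genes. The sums are weighted by the most abundant genes. Taken singly, 14 of the 28 fibre genes were highest in CON 1, 7 in CON 2 and 7 in CON 3.

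The 3 libraries were similar in overall shape. Across all genes the deposited log2 values of a pair of libraries had Pearson correlations of 0.964 to 0.969, a description over genes, which are not independent. Genes without reads share 1 value in every library and enter these correlations. Over the 9626 genes with a mean of 100 or more normalised reads the correlations were 0.922 to 0.943. Single genes varied more. For these 9626 genes the median CV was 30.1%, while counting error alone would give 5.62%, and the CV was above its counting error in 9420 genes (97.9%). The highest library exceeded the lowest by more than 2 times in 3866 genes (40.2%). The median CV was 87.4% in genes with a mean of 10 to 100 normalised reads, 37.2% from 100 to 1000, 24.1% from 1000 to 10000 and 21.7% above that.

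By list, housekeeping genes had a median CV of 17.5% and ribosomal proteins of 18.8%, and fibre genes had 23.7%. Crystallins had 27.3%, and 6 of 16 exceeded 2 times, namely Crybb2, Crygb, Crygc, Cryga, Crybb3 and Cryge. Crybb2 varied most among them, with 71022, 231815 and 170295 normalised reads, a CV of 51.4%. Cryaa varied least, with a CV of 8.73%. Lens transcription factors had a median CV of 34.7%, with 11 of 22 over 2 times, and epithelial genes 34.8%, with 10 of 22. The background for these counts is the 40.2% of all genes, a share that fell with depth. Among genes with a mean of 10000 or more normalised reads, where all crystallins lay, 7.89% exceeded 2 times. The crystallin count is thus high beside genes of that depth, although it is close to the share of all genes.

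Among the genes at this depth, 36.2% were highest in CON 1, 29.6% in CON 2 and 34.2% in CON 3, and 37.6%, 32.3% and 30.1% were lowest in them. Ribosomal proteins departed from these shares, with 63 of 78 highest in CON 2. With size factors, 2 of 78 ribosomal proteins and 7 of 22 cell cycle genes were highest in CON 1. Scaled by total reads instead, 60.7% of all genes were highest in CON 1. Among them were 25 of 78 ribosomal proteins and 15 of 22 cell cycle genes. Under that scaling 40 ribosomal proteins and 11 crystallins were still highest in CON 2.

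The library in which a gene was highest varied with the length of its exons. In the shortest of 5 equal groups of genes, from 348 to 2508 bases, 48.8% were highest in CON 2 and 14.0% in CON 1. In the longest group, from 7866 bases upwards, 21.3% were highest in CON 2 and 46.01% in CON 1. Transcripts of crystallins and ribosomal proteins are short, and 12 of 16 and 63 of 78 of these genes were highest in CON 2. The part of length in these counts was not tested.

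**Figure D5:**
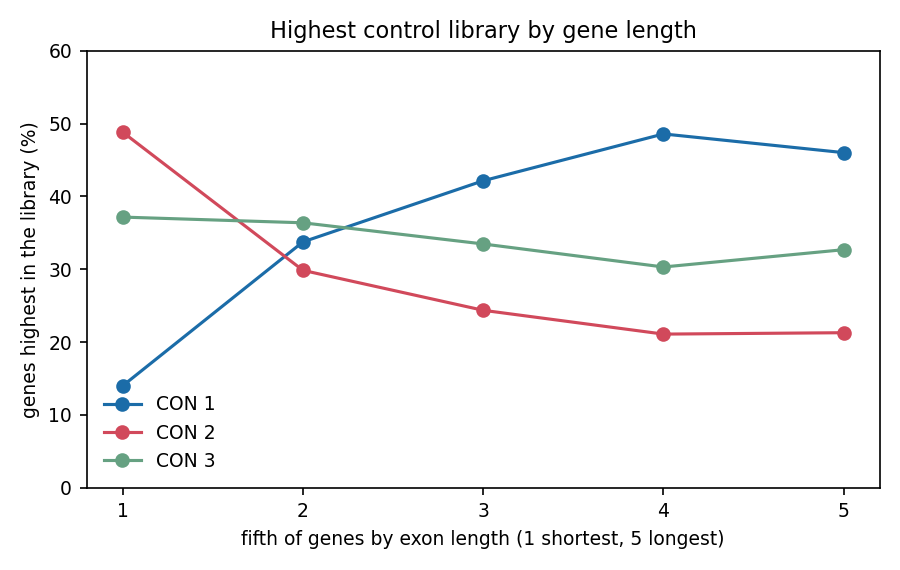
Share of genes with a mean of 100 or more normalised reads that were highest in each library (y axis, percent) in 5 equal groups by exon length (x axis, from shortest to longest), with a line for each library. The line of CON 2 falls from 48.8% to 21.3% and that of CON 1 rises from 14.0% to 46.01%, while CON 3 stays between 30.3% and 37.2%.

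Reads were absent from some libraries for genes with many reads in another. There were 205 genes with 0 reads in 1 or more libraries and 100 reads or more in another, and the 0 fell in CON 2 for 154 of them, in CON 3 for 66 and in CON 1 for 9. The most reads opposite a 0 were the 612 of Naa40, an N-terminal acetyltransferase, in CON 1, with 0 in CON 2 and 111 in CON 3. Among the 9626 genes with a mean of 100 or more, 57 (0.592%) had a library at 0, of which Bub1b, a mitotic checkpoint kinase, had 506, 96 and 0 reads. For that gene 506 reads against 0 in CON 3 was at least 121 times, with 3 reads as the floor per library. Mib2, a ubiquitin ligase, had 297 reads in CON 1 and none in the other libraries. Igip had 0, 97.6 and 242 normalised reads, and Arhgap26, a regulator of small GTPases, had 149, 144 and 2 reads. The other genes with the largest ratios were Foxe3, Zfp574, Ampd2, Extl3 and Ercc6, and all 5 were highest in CON 1.

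At the other end, Zfp706 had 7977, 7981 and 8052 normalised reads, a CV of 0.525%. The other 9 genes with the smallest CVs were Cenpa, the centromeric histone, Ddx19a, Akr1b3, Ess2, Ywhaz, Sms, Gle1, Nrbp1 and Cap2, with CVs up to 1.38%. Akr1b3, the aldose reductase that makes sorbitol in the lens, had 1298, 1303 and 1277 normalised reads. Its mean level was 4.05 with the exon union and 17.05 with the RefSeq-matched length. Of these 10 genes, Ywhaz belongs to the housekeeping list, at 11211, 11414 and 11471 normalised reads. Eef1a1 had a CV of 5.10%, Hsf4 of 6.16% and Actb of 8.65%.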

How the data were processed

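Lens RNA of P1 mice was sequenced by the authors in 6 libraries, of which the 3 labelled Gclc CON were used. The submitters' processing notes name Trimmomatic, HISAT2 2.1.0, featureCounts 1.6.4 and mm9. DESeq2, which the authors' notes list as 2.11.0.6, offers the variance-stabilising transformation that the deposited log2 values follow. The values cover 27179 Entrez genes, and a gene without reads stands at 6.5041. The order, trimming settings and treatment of reads that fit several places are not given in the sources used here.

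The transformation was inverted per library, and 100% of the values came within 0.1 of a whole number of reads. The size factors were 0.947, 0.318 and 0.678. The inversion was also run on values simulated with the same formula, which cannot show that the deposited values follow it. Symbols (25275 genes) came from RefSeq. Exon lengths (21572 genes, union of exons) came from GENCODE vM21 (GRCm38), and no coordinates were carried between builds. In no library did genes without a length take over 0.557% of the reads. Calculations used Python 3.11.15, numpy 2.4.6 and pandas 2.3.3, and figures matplotlib 3.10.9.

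Only 1 group was described, so no test was made. The 95% binomial interval (Wilson) of a crystallin share spans at most 0.0404 percentage points. Intervals and the floor of 3 reads cover counting error only. Reads carry no molecular identifiers. From 52.5% to 55.1% of genes with 1 to 100 reads had an even count, so both mates of a pair may have been counted. The 61 lists with 540 symbols, of which 1 was not matched, and the members were chosen with earlier results of these data known. By rule, the text names the 25 highest genes, members of crystallins and other families, the 3 highest and the lowest of other lists, all of short lists, and 10 genes each with the largest ratio and the smallest CV. Further list members were named after their values were seen, and a few genes are not reported here. Alternatives were other thresholds, lengths, scalings and filters and leaving out each library.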

Additional observations from a re-analysis of the deposited data

How the results depend on the processing

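No paired analysis was possible because the results come from no test and only 1 group was used. Shares of reads become other shares when lengths enter or crystallins leave the denominator. As shares of the level, crystallins held 81.1% (79.4% with the RefSeq-matched length, an alternative chosen after seeing the data), fibre genes 1.62% (1.56%), epithelial genes 0.123% (0.121%), housekeeping genes 0.378% (0.395%) and ribosomal proteins 1.82% (2.54%). Of the reads outside crystallins, these 4 lists held 6.74%, 0.901%, 1.75% and 5.77%. The count of genes that were on was 3183 at a level of 5 and 9551 where levels were scaled over genes outside crystallins. It was 7824 at a level of 0.5, 6600 with the longest transcript, 6373 with the RefSeq-matched length and 7907 by the mean level. The share of the 10 highest genes was 61.4% without length. Genes over 2 times between libraries numbered 7644 from a mean of 10 and 621 from a mean of 1000 normalised reads.

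Leaving out 1 library gave 1813 (without CON 1) to 2362 (without CON 2) genes over 2 times, fewer because fewer libraries are compared. The crystallin share was then 62.8% to 67.2%, genes on 6440 to 6957, family members on 117 to 123 and the share of the 10 highest genes 73.8% to 76.2%. Family members on numbered 82 at a level of 5, 147 with that scaling and 112 with the RefSeq-matched length, which drops Lmnb1, Mafg and Pitx3 among others. Depth limits the rarest genes, and a level of 1 in CON 2 is 15.03 reads per kilobase of exon.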

Other observations

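Among the 100 highest genes, 48 belonged to none of the crystallin, fibre, epithelial, transcription factor, housekeeping, ribosomal or mitochondrial lists. The genes named here were chosen after their values were seen. Several encode enzymes of redox defence. Gpx1, a glutathione peroxidase, stood at rank 33 with levels of 821, 755 and 774, and the glutathione transferases Gstm1 and Gstp1 had levels of 447, 423 and 498 and of 409, 385 and 422. Hmox1, the inducible heme oxygenase, had levels of 375, 113 and 429 and was low in CON 2 alone. Others are nuclear subunits of the respiratory chain, such as Cox6a1 at 658, 617 and 593, Cox4i1 at 442, 426 and 461 and Atp5b at 412, 224 and 225. The proteasome subunits Psmc5, Psmb6 and Psmb5 stood at ranks 65, 81 and 94. Hsp90ab1, a heat shock protein, had levels of 1020.3, 749.9 and 851, and Mgarp, a mitochondrial protein, had levels of 1000.1, 922 and 1010.0. Id2, an inhibitor of helix-loop-helix factors, stood at rank 83.

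Sex-linked genes differed between the libraries. Eif2s3y of the Y chromosome had 688, 29 and 1365 reads and Ddx3y had 552, 65 and 1140. Uty had 288, 0 and 379 reads and Kdm5d had 86, 0 and 224. Xist, which is transcribed from the inactive X chromosome, had 24, 73 and 0 reads. The sex of the pups is not given in the labels, and no value in the report was adjusted for it.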
